A study of Mus musculus with 12 samples.

Results

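The genes described here are 10 mouse genes of the hair bundle, nearly all with human counterparts known for hereditary deafness: Myo7a, Ush1c, Cdh23, Pcdh15, Ush1g, Cib2, Tmc1, Tmc2, Tmie and Lhfpl5. They were chosen by name, as products of Usher syndrome type 1 genes or parts of the mechanotransduction complex, and all 10 were among the 24489 genes of the count table. Their levels were read in hair cells (HC) at embryonic stages E16.5 and E18.5. At low level, they were also read in spiral ganglion neurons (SGN) from E14.5 to postnatal day 3 (P3). Glia and otic mesenchyme (OM) were read at low level from E14.5 to E17.5 only, since later plates held too few of these cells or none.

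Hair cells of the inner ear turn sound and head movement into current at the stereocilia, actin-filled protrusions joined at their tips by fine filaments. Each filament, the tip link, is made of CDH23 above and PCDH15 below, and it is anchored above by the motor MYO7A with the scaffold proteins harmonin (the product of Ush1c) and SANS (the product of Ush1g). At its lower end it meets the transduction channel, in which TMC1 and TMC2 line the pore and TMIE, LHFPL5 and CIB2 are partners needed for the current. Usher syndrome type 1 joins congenital deafness with loss of balance and of sight, while defects of TMC1, TMIE and LHFPL5 are known as deafness without loss of sight.

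Plates of 384 wells received single cells sorted for the red reporter tdTomato, and libraries were made by Smart-seq2, which reads whole transcripts and carries no molecule barcodes. Each plate was 1 sample and counted as 1 replicate: 2 plates at E14.5, 2 at E15.5, 3 at E16.5, 1 at E17.5, 2 at E18.5 and 2 at P3. All were cochlea of PVcre;Ai14 mice, except E14.5 plate 2, labelled TrkCcre. Parvalbumin-driven or TrkC-driven Cre turns on the reporter in neurons and in other cells that have used the driver, and animals were pooled. No animal was mutant or treated. The methods give TrkC-driven Cre (Ntrk3Cre) for E14.5 where the label of E14.5 plate 1 gives PVcre, so stage alone was used. Plates of P3 came from an earlier plate series than all embryonic plates, so that age and plate series cannot be told apart. The plates of E18.5 likewise form a plate series of their own, and E16.5 plate 3 belongs to another series than E16.5 plates 1 and 2.

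Of 4608 wells 4226 held a cell that passed the filter, and these cells carried between 80997594 and 303906928 counts per plate, with plate medians of 232473 to 1092427 counts per cell. Clusters named from marker genes gave 85 HC-like, 2240 SGN-like, 1133 glia-like and 573 OM-like cells. A further 189 cells stayed unnamed and 6 were blood or vessel cells. The 10 genes and the other hair bundle genes took no part in the clustering. Of the 85 HC-like cells 68 came from E18.5, with 36 and 32 cells in plates 1 and 2, against 4 and 8 in E16.5 plates 1 and 3 and 5 at E17.5. E16.5 plate 2 held no HC-like cell. Of the HC-like cells of E16.5, 2 of 4 in plate 1 and 7 of 8 in plate 3 were named vestibular-like, against 27 of 68 at E18.5. Stage and plate differences thus mix cells of different type names. The names in plate 3 are weak, since 5 of its 8 HC-like cells had fewer than 4 of 8 hair cell markers.

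Cell by cell, the hair cell markers were mostly present at E18.5 and in E16.5 plate 1, and less so in the remaining plates. The same markers named the clusters, so they are no independent check of the HC-like name. At E18.5 1 of 36 and 1 of 32 cells had fewer than 4 of the 8 hair cell markers (Atoh1, Pou4f3, Gfi1, Lhx3, Otof, Barhl1, Jag2 and Rasd2), and in E16.5 plate 1 none of 4 had. In E16.5 plate 3, 5 of 8 cells had fewer than 4 of these markers and Atoh1 was at 0, and so had 3 of 5 cells at E17.5. Cells short of markers were also short of the deafness genes: those 5 cells of E16.5 plate 3 held counts of 1 to 3 of the 10 genes each, while the other 3 cells held 4 to 9. The summed level of the 8 markers was 5325 and 3501 CPM (counts scaled to the total of the class in its plate) in E16.5 plates 1 and 3, 2756 CPM at E17.5, and 5146 and 5719 CPM in E18.5 plates 1 and 2. Levels at E16.5 are therefore given plate by plate throughout, and those of plate 3 also for its 3 marker-rich cells. HC-like cells also carried supporting cell markers, in sum 731.7 and 2275 CPM in E16.5 plates 1 and 3 and 676.2 CPM at E17.5. The sums were 2082 and 1033 CPM in E18.5 plates 1 and 2. The 9 HC-like cells of E18.5 plate 1 with no named type had 4486 CPM of these, beside 3275 CPM of hair cell markers.

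The genes lie on 7 chromosomes (GRCm38 with the GENCODE vM21 annotation). Those of the tip link are both on chromosome 10, Cdh23 at chr10:60302748-60696490 on the minus strand in 75 exon blocks and Pcdh15 at chr10:73099342-74649737 on the plus strand in 47. The motor and scaffold genes are Myo7a at chr7:98051060-98119524 and Ush1c at chr7:46195350-46238503, both on the minus strand, and Ush1g at chr11:115315192-115322041 on the minus strand. The pore genes are Tmc1 at chr19:20783458-20954202 on the minus strand and Tmc2 at chr2:130195194-130264445 on the plus strand. Their partners are Tmie at chr9:110865711-110880113 and Cib2 at chr9:54544794-54560218, both on the minus strand, and Lhfpl5 at chr17:28575641-28585679 on the plus strand. Of the exon bases of Cib2, 15.8% also lie in exons of Sh2d7 on the opposite strand, as do 7.89% of those of Tmie in Als2cl and 3.12% of those of Ush1c in Gm9860. Strand use in counting is not given in the sources used here, so reads in these stretches cannot be told apart. At E18.5 Sh2d7 itself had 30.9 and 41.8 CPM in HC-like and 3.52 and 3.13 CPM in SGN-like cells, well under the level of Cib2 in the same cells.

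The genes are shown with sequence upstream of their start sites because all 10 had more counts in HC-like than in SGN-like cells of E18.5, relative to the class totals. RefSeq (GRCm38.p6) gave 250 bases before the start for 8 of the 10 genes in 9 windows, and Ush1g and Tmc2 had no entry. The windows were searched on both strands for CAGCTG, an E-box of the kind bound by the hair cell factor ATOH1 with its partners. A further E-box form of this kind, CAGATG, was searched the same way. So was the core promoter element TATAAA. The first of these stood in 2 of the 9 windows (13% of all 32851 windows of this length), the other E-box in 0 (14.4%) and the core element in 1 (12.4%). The matches are a description of letters and show no binding. The window of Tmie held CAGCTG 206 bases before the start, in a stretch that overlaps annotated exons of Als2cl, and is not printed. Those of Lhfpl5 (the 172 bases that lie outside exons, chr17:28575469-28575640, plus strand) and of Pcdh15 (chr10:73821617-73821866, plus strand, a start inside the GENCODE span of the gene) follow, with the motif in capitals.

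Lhfpl5: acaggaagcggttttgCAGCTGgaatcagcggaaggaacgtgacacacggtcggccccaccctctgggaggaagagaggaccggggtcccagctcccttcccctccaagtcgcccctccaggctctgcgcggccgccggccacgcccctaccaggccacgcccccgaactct

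Pcdh15: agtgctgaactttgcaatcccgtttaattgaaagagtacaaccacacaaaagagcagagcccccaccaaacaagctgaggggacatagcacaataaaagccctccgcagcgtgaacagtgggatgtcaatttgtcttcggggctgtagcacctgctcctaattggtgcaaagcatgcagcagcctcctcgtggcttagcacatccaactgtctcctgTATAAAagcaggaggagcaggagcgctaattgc

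Lhfpl5 is rich in G and C over this stretch (68.6%), and Pcdh15 less so (50.4%), with its TATAAA 33 bases before the start.

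All 10 genes were detected in HC-like cells of E18.5, and for each of them both HC-like sums lay above both SGN-like sums. Of the tip link genes, Cdh23 was at 269.5 and 223.9 CPM in HC-like cells of E18.5 plates 1 and 2 and at 0.962 and 1.15 CPM in SGN-like cells. Pcdh15 was at 213.8 and 250.8 CPM in HC-like and 1.87 and 2.92 CPM in SGN-like cells. Both tip link genes thus had HC-like plates far above SGN-like plates, with no overlap. The difference was called for Cdh23, a log2 fold change of 7.85 (SE 0.39, adjusted p = 0.033, edgeR's quasi-likelihood test with Benjamini-Hochberg adjustment over 15107 genes). Pcdh15, at 6.61 (SE 1.19, adjusted p = 0.0952), was not called.

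Of the upper anchor, the motor gene Myo7a was at 768.8 and 620.4 CPM in HC-like and 19.2 and 17.7 CPM in SGN-like cells of E18.5. The scaffold gene Ush1c was at 285.6 and 320.3 CPM against 1.61 and 1.88 CPM. The scaffold gene Ush1g had the lowest HC-like level of the 10 in CPM, 27.0 and 34.6 against 1.15 and 1.07 CPM. Again no HC-like plate overlapped an SGN-like plate. Ush1c was called, at a log2 fold change of 7.42 (SE 0.34, adjusted p = 0.033, edgeR). Myo7a at 5.21 (SE 0.71, adjusted p = 0.0649) and Ush1g at 4.76 (SE 1.60, adjusted p = 0.198) were not.

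Of the channel, Tmc1, the pore gene kept in mature cochlear hair cells, was at 89.1 and 96.9 CPM in HC-like and 0.565 and 0.250 CPM in SGN-like cells. Tmc2, the pore gene of immature cochlear and of vestibular hair cells, was at 62.1 and 59.9 against 1.15 and 1.36 CPM. Tmie was at 120.9 and 132.1 against 2.06 and 1.79 CPM. These 3 genes were at 2.06 CPM or less in SGN-like cells.

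Lhfpl5, which ties PCDH15 to the TMC proteins, was at 761.3 and 671.3 CPM in HC-like and 29.1 and 29.9 CPM in SGN-like cells. Cib2, a calcium-binding partner of the TMC proteins, was at 935.3 and 1107 CPM against 95.9 and 101.4 CPM. Cib2 and Lhfpl5 were the genes of the 10 with the most reads in SGN-like cells, and they too showed no overlap with HC-like plates. Tmc1 (log2 fold change 7.92, SE 0.78, adjusted p = 0.0417) and Lhfpl5 (4.58, SE 0.22, adjusted p = 0.033) were called in edgeR. Tmie (6.02, SE 0.75, adjusted p = 0.0597), Cib2 (3.35, SE 0.45, adjusted p = 0.0632) and Tmc2 (5.59, SE 1.59, adjusted p = 0.162) were not.

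**Figure D1:**
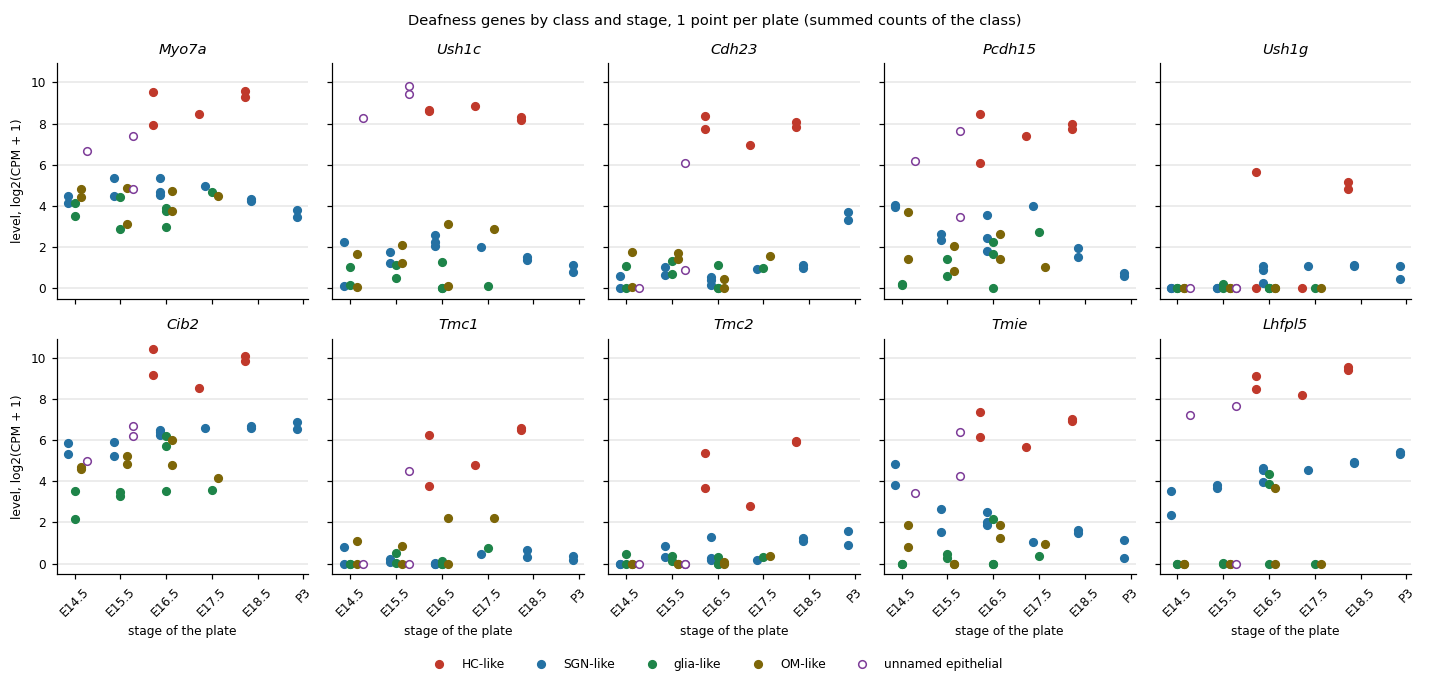
Level of each of the 10 genes, as log2(CPM + 1) on the vertical axis, in every plate by stage, for HC-like, SGN-like, glia-like, OM-like and unnamed epithelial cells (1 point per plate and class). HC-like points stand above SGN-like points in all 10 panels at E18.5, where glia-like and OM-like cells were too few to be drawn. Cib2 is the gene with the highest SGN-like points.

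At E18.5, 4 of the 10 genes were called higher in HC-like cells, where 1.46% of all genes tested were, and none was called lower (0.424% of all genes). Their median log2 fold change was 5.81, against -0.06 over all genes. All 10 had an unadjusted p under 0.05, as 23.4% of all genes did in either direction, and DESeq2 called all 10 higher, as 12.6% of all genes. HC-like plates lay above SGN-like plates without overlap for 10 of 10 genes, as for 32.1% of 20972 genes. The fit had 8 sums with 2 residual degrees of freedom, and which of the 10 were called turned on single plates: all 10 were called higher without E16.5 plate 1 or 3, where 26.4% and 23.9% of all genes were, and 0 without either E18.5 plate, where no gene was. None was called when HC-like cells had to have at least 4 of 8 markers (adjusted p 0.0975 to 0.264), nor was any of the 15100 genes tested. This setting was chosen after the data had been seen.

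At E16.5 the levels in HC-like cells differed between the 2 plates for most of the 10 genes. Myo7a was at 742.3 CPM in plate 1 and 243.8 in plate 3, against 24.5 and 39.3 CPM in SGN-like cells. Pcdh15 was at 354.4 and 66.7 CPM against 4.34 and 10.6 CPM. Ush1g was at 48.6 CPM in plate 1 and had 0 counts in plate 3, where 3 counts would be 1.60 CPM. As the SGN-like values were 1.14 and 0.183 CPM, plate 3 cannot be ranked against them.

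The remaining genes showed less spread or none of consequence for the order of the classes. Cdh23 was at 330.9 and 211.3 CPM and Ush1c at 398.5 and 388.4 CPM in HC-like cells of plates 1 and 3. Lhfpl5 was at 553.9 and 362.3 CPM and Cib2 at 570.1 and 1372 CPM. Cib2 was the only gene of the 10 with the higher level in plate 3, while Ush1c was nearly even.

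The channel genes were at 76.0 and 12.8 CPM for Tmc1, 40.8 and 11.7 CPM for Tmc2, and 164.3 and 71.0 CPM for Tmie. All 3 were thus lower in plate 3. In the 3 marker-rich cells of plate 3 alone the levels were 485.9 CPM for Myo7a, 108.4 for Pcdh15, 25.5 for Tmc1, 23.4 for Tmc2, 141.4 for Tmie and 2509 for Cib2, with Ush1g still at 0. Other genes in these cells were at 241.3 CPM for Ush1c, 289.2 for Cdh23 and 633.6 for Lhfpl5.

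The same 4 genes were called at E16.5 as at E18.5, where 1.77% of all genes were called higher and 0.96% lower. The log2 fold change was 10.10 for Cdh23 (SE 0.44), 6.44 for Ush1c (SE 0.33) and 4.42 for Lhfpl5 (SE 0.22), each with an adjusted p of 0.0298 in edgeR. Tmc1 (adjusted p = 0.0359, edgeR) rested on 160 counts in HC-like against 2 in SGN-like cells, a ratio of 2870 with a counting interval of 781 to 23900. HC-like plates lay above SGN-like plates for 9 of 10 genes, with Ush1g not ranked, as for 15.8% of 19265 genes. The median of all genes was shifted by -0.87 (log2) in this comparison, and the median of the 10 genes was 4.58. Without E16.5 plate 3 all 10 were called higher, Myo7a at 4.76 and Pcdh15 at 6.19, where 17.8% of all genes were. Without E16.5 plate 1 9 were called higher, where 18.6% of all genes were, and Ush1g was not. With marker-rich cells only none was called (adjusted p 0.0948 to 0.421), nor was any gene.

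Whether the HC-SGN difference itself changed from E16.5 to E18.5 was tested as an interaction, and none of the 10 genes was called, nor was any gene (0% of 15107). Unadjusted p were under 0.05 for 1073 genes, and DESeq2 called 410. Cdh23 had a smaller difference at E18.5, by -2.26 on the log2 scale (SE 0.45, adjusted p = 0.678, edgeR), with its SGN-like level at 0.296 and 0.122 CPM at E16.5 and at 0.962 and 1.15 CPM at E18.5. Within HC-like cells alone E18.5 against E16.5 gave no call among 13038 genes (0%; 1088 genes at unadjusted p under 0.05, 62 by DESeq2), and fitted changes of the 10 genes from -0.35 for Ush1c to 1.25 for Tmc2. Leaving out E16.5 plate 1 gave 7 of the 10 genes as higher at E18.5, where 42.9% of all genes were and the median of all genes was 1.38, and leaving out E16.5 plate 3 gave 1, where 9.58% were. For the interaction, the fit without plate 1 gave 5 higher and 2 lower, against 34.9% and 11.6% of all genes (median 1.63), and that without plate 3 gave 1 higher and 2 lower, against 4.54% and 2.67%.

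At E17.5, with 1 plate and no test, HC-like cells had 348.4 CPM for Myo7a, 459.3 for Ush1c, 366.1 for Cib2, 293.5 for Lhfpl5, 165.9 for Pcdh15 and 123.7 for Cdh23. Tmie was at 50.1, Tmc1 at 26.5 and Tmc2 at 5.89 CPM, and Ush1g at 0, where 3 counts are 2.94 CPM. The E17.5 plate was thus lower than both E18.5 plates for all genes but Ush1c. These 5 cells also carried 1294 CPM of the 8 glia markers and 812.7 CPM of the 10 OM markers in sum, against 396.9 and 438.9 CPM and 296.7 and 120.8 CPM in HC-like cells of E18.5. In the 2 marker-rich cells of E17.5 Myo7a was at 610.7, Pcdh15 at 242.1 and Cdh23 at 231.1 CPM, and marker-rich cells of E18.5 plates 1 and 2 had 219.5 and 261.6 CPM of Pcdh15 and 277.2 and 233.6 CPM of Cdh23, so Pcdh15 was then not below both.

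Counts per cell showed the same division by gene. At E18.5 the median HC-like cell held counts of 10 of the 10 genes, and of 9 after thinning every cell to 100000 counts, against 3 and 2 in SGN-like cells. Cib2 was found in 68 of 68 HC-like cells (100%, exact 95% interval 94.7 to 100). Myo7a and Ush1c were found in 97.1% of thinned HC-like cells (89.8 to 99.6) and Ush1g, at the other end, in 60.3% (47.7 to 72). Ush1g is thus the gene of the 10 most often at 0 in single HC-like cells.

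In SGN-like cells, at 616 thinned cells, Cib2 was found in 98.9% (unthinned 99.7%), Lhfpl5 in 65.1% (72%) and Myo7a in 46.3% (53.9%). The other 7 genes were found in 1.95% (Tmc1) to 8.93% (Tmie) of thinned cells. Hair cell markers were counted in the same cells: Atoh1 and Barhl1 were found in 0.325%, Gfi1 in 0.649%, Pou4f3 in 0.812%, Lhx3 in 0.974%, Otof in 11.2%, Rasd2 in 65.1% and Jag2 in 83.8%. Median depth was 343000 counts in HC-like and 349000 in SGN-like cells. The share of Cib2 thus lay above all 8 markers. Those of the 7 rarer genes lay above 5 markers and below Otof, and whether they stand for expression in neurons was not tested.

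**Figure D2:**
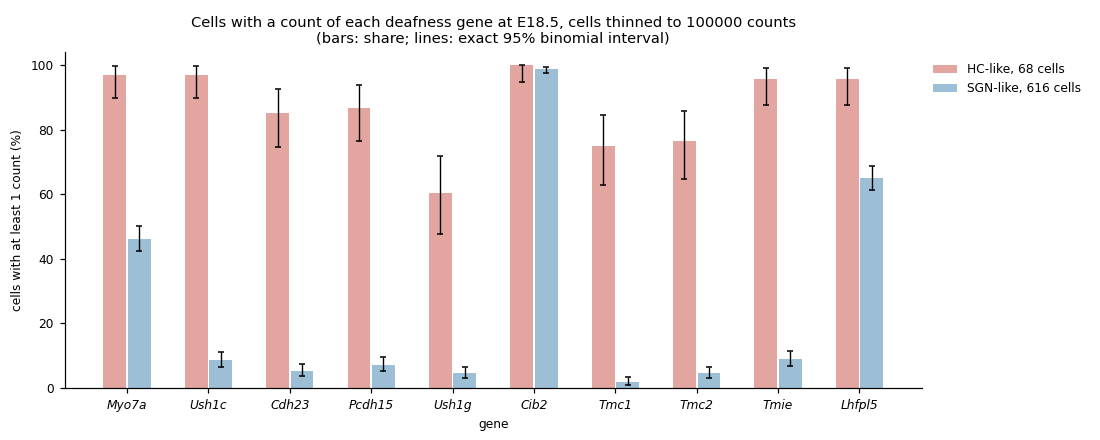
Percent of E18.5 cells with a count of each gene, after thinning to 100000 counts per cell, in 68 HC-like and 616 SGN-like cells, with exact 95% binomial intervals that cover counting error only. Cib2 is near 100% in both classes, Lhfpl5 and Myo7a are intermediate in SGN-like cells, and the other 7 genes are under 9% there.

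Tmc1 and Tmc2 were mostly found in the same HC-like cells. At E18.5, 50 of 68 cells held both, 8 held Tmc1 only, 3 held Tmc2 only and 7 held neither. After thinning these were 43, 8, 9 and 8 cells. At E16.5 4 of 12 cells held both, 1 held Tmc1 only and 7 held neither.

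Between genes levels can be compared per kilobase of exon. The length used was that of all annotated exons of a gene merged, 23773 bases for Pcdh15 and 16939 for Cdh23. Genes whose transcripts use only part of these exons rank lower by this measure. In HC-like cells of E18.5, Cib2 led with 713 CPM per kb (653 and 773 in the plates), followed by Lhfpl5 with 300 (281 and 319). Myo7a (81.1, 72.4 to 89.8) and Ush1c (78.7, 74.2 to 83.2) overlapped each other. Tmie had 40.9 CPM per kb and Tmc2 18.6 to 19.3, and Cdh23 (14.6, 13.2 to 15.9) overlapped Tmc1 (12.9, 12.4 to 13.5). Pcdh15 (9.77) and Ush1g (9.32) came last and also overlapped. The transduction partners Cib2 and Lhfpl5 thus stood above the tip link, scaffold and pore genes per merged exon length.

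In SGN-like cells the leading order was alike, with Cib2 at 68.8, Lhfpl5 at 12.4 and Myo7a at 2.15 CPM per kb, and the other 7 at 0.0566 (Tmc1) to 0.623 (Tmie) CPM per kb.

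Set against HC-like cells of the same plate, SGN-like cells of E18.5 had 10.3% and 9.16% of the HC-like level of Cib2. The share was 3.82% and 4.46% for Lhfpl5, 4.26% and 3.1% for Ush1g, and 2.5% and 2.85% for Myo7a. At the other end were Cdh23 with 0.357% and 0.514% and Tmc1 with 0.634% and 0.258%. The median over the 10 genes was 1.78% and 1.82%, and that over the 8 hair cell markers was 0.0787% and 0.0474%. Of these markers Jag2 (13.4% and 15%) and Rasd2 (3% and 3%) had the highest ratios, and the other 6 were at 0.005% to 0.145%. All 10 genes were thus above Atoh1, Pou4f3, Gfi1, Barhl1, Lhx3 and Otof in this ratio.

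**Figure D3:**
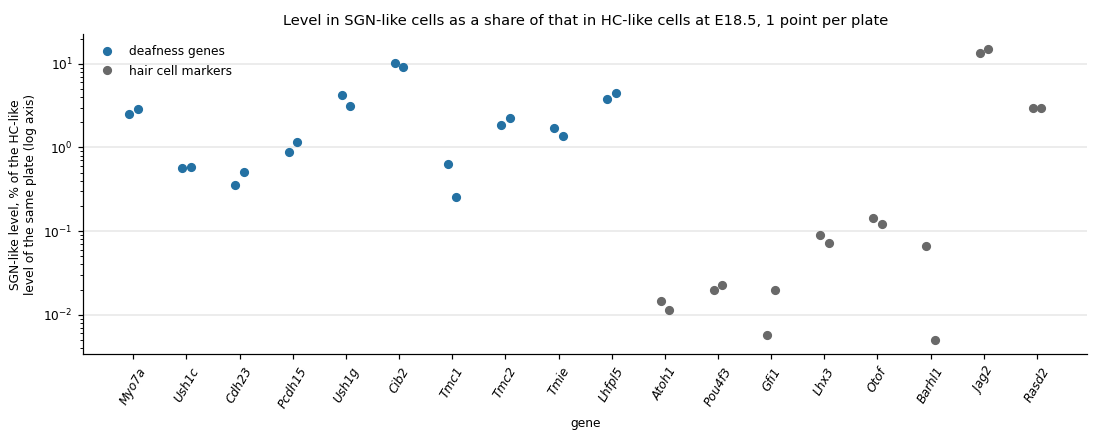
SGN-like level as a percent of the HC-like level of the same plate at E18.5 (log axis, 1 point per plate) for the 10 genes and 8 hair cell markers. The 10 genes lie between 0.258% and 10.3%, above 6 of the markers, while Jag2 and Rasd2 lie among or above them.

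At E18.5 the HC-like cells fell into inner (IHC-like, 6 and 13 cells in plates 1 and 2), outer (OHC-like, 8 and 3 cells) and vestibular (13 and 14 cells) groups, with 9 and 2 left unnamed. The tip link genes were higher in OHC-like cells. Pcdh15 was at 111.2 and 151.01 CPM in IHC-like and 436.7 and 417.9 CPM in OHC-like cells, with no overlap. The log2 fold change was 1.67 (SE 0.23, adjusted p = 0.000664, edgeR). Cdh23 was at 276.4 and 229.2 CPM in IHC-like and 493.7 and 472.0 CPM in OHC-like cells. It too showed no overlap, with a log2 fold change of 0.88 (SE 0.18, adjusted p = 0.0117, edgeR).

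Tmc1 went the other way, at 174.5 and 128.8 CPM in IHC-like and 13.2 and 17.45 CPM in OHC-like cells. Its log2 fold change of -3.40 (SE 0.32, adjusted p = 4.75e-05, edgeR) was the largest of the 10 genes in size. Ush1g was at 4.12 and 20.2 CPM in IHC-like and 46.7 and 42.8 CPM in OHC-like cells. Its plates did not overlap, but at 1.99 (SE 0.57, adjusted p = 0.0558) it was not called.

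The other 6 genes were not called. Tmc2 had 62.3 and 73.3 CPM in IHC-like and 53.0 and 22.7 CPM in OHC-like cells (log2 fold change -0.95, SE 0.39, adjusted p = 0.195, edgeR). Fitted changes of Tmie, Myo7a, Ush1c, Cib2 and Lhfpl5 lay between -0.51 and 0.27. Of the 10 genes 2 were called higher and 1 lower, where 2.80% and 4.49% of 12648 genes were. None of the 3 calls held with cells clustered at a Leiden resolution of 2 (log2 fold changes of 1.64 for Pcdh15, 1.08 for Cdh23 and -3.0 for Tmc1, adjusted p 0.266 to 0.473, edgeR), and the fit had 2 residual degrees of freedom with 3 OHC-like cells in plate 2.

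Vestibular HC-like cells had far more Ush1c, 579.0 and 617.9 CPM against 90.5 to 130.4 CPM in both cochlear types (log2 fold change 2.37, SE 0.16, adjusted p = 2.12e-06, edgeR), and less Cib2 (-1.04) and Lhfpl5 (-1.32) than the mean of the cochlear types. Ush1c alone of the 5 genes called (2 higher, 3 lower, against 9.11% and 6.02% of all genes) held at a Leiden resolution of 2. Tmc1, at 103.9 and 102.8 CPM, stood between IHC-like and OHC-like cells. Against the mean of the cochlear types on the log2 scale it was higher, by 1.076 to 1.153 with 1 plate left out. Cdh23 was lower there, at -0.807 to -0.747. As IHC-like and OHC-like cells differed widely in Tmc1, its difference from their mean holds for neither type alone.

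**Figure D4:**
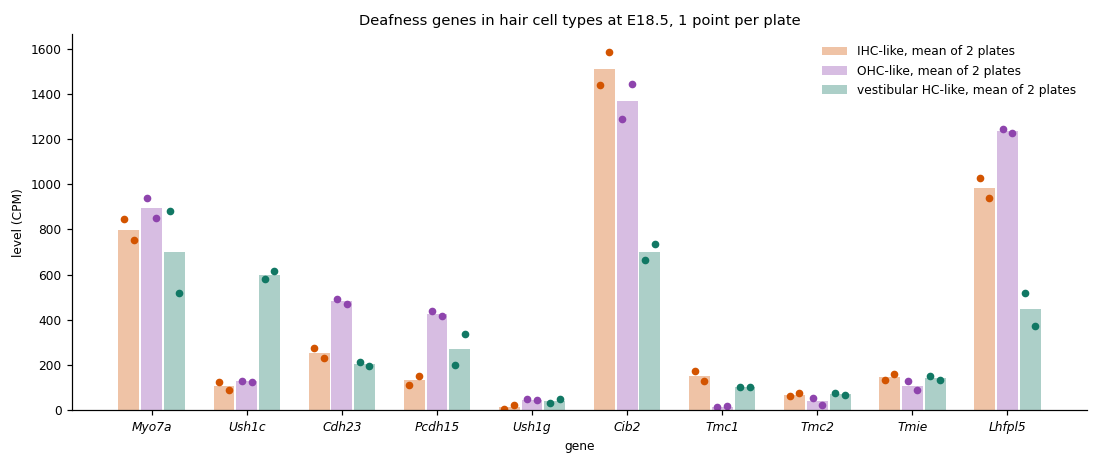
CPM of the 10 genes in IHC-like, OHC-like and vestibular HC-like cells of E18.5 (bars start at 0 and give the mean of 2 plates, points give the plates). Ush1c is highest in vestibular cells, Tmc1 is lowest in OHC-like cells, and Pcdh15 and Cdh23 are higher in OHC-like than IHC-like cells.

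In SGN-like cells from E14.5 to E18.5, Cib2 and Lhfpl5 rose. Other measures moved with the stages. The median number of genes per cell was 4691 to 4983 in the plates of E14.5, E15.5 and E17.5 and in E16.5 plate 3, which form 1 plate series, and 8426 to 9629.5 in the other plates. The 8 glia markers in SGN-like cells summed to 91.72 and 63.38 CPM at E14.5, 2214 and 2134 CPM at E18.5 and 4375 and 5396 CPM at P3. Their part in the levels below was not tested, and plate series and age cannot be told apart between E14.5 and E18.5. Lhfpl5 was at 4.18 and 10.5 CPM at E14.5, 13.1 and 11.7 at E15.5, 22.2, 24.5 and 14.8 at E16.5, 22.3 at E17.5, 29.1 and 29.9 at E18.5 and 41.4 and 39.4 at P3. Every later plate was thus above both plates of E14.5. The rise to E18.5 was 2.01 on the log2 scale (SE 0.38, adjusted p = 0.00321, edgeR over 17867 genes), and it was called under every alternative tried, left-out plates included. Cib2 was at 57.6 and 38.7 CPM at E14.5, 58.8 and 36.9 at E15.5, 75.9 to 88.8 over the 3 plates of E16.5, 95.7 at E17.5, 95.9 and 101.4 at E18.5 and 115.8 and 92.1 at P3. Its rise to E18.5 was 1.03 (SE 0.24, adjusted p = 0.0108, edgeR), with no overlap of the plates.

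Ush1g and Tmc2 had 0 counts in both plates of E14.5, and 252 and 290 counts at E18.5. Ush1g was at 1.15 and 1.07 CPM at E18.5, at least 12.2-fold higher than at E14.5 (adjusted p = 0.0174, edgeR), with the floor set at 3 counts over the stage. Tmc2 was at 1.15 and 1.36 CPM, at least 14-fold higher (adjusted p = 0.024, edgeR). At E18.5 both were thus near 1 CPM, which is a small part of their HC-like level. Within the plate series of E14.5, Ush1g was at 0 in both plates of E15.5 and at 0.325 CPM per kb at E17.5. Tmc2 had 24 counts in SGN-like cells of E16.5 plate 3 and 2 at E17.5, so it did not rise stage by stage. The hair cell marker Otof went from 0 CPM in both plates of E14.5 to 3.08 and 3.30 CPM at E18.5 in the same cells. The summed 8 markers went from 95.56 and 129.3 to 79.43 and 78.41 CPM, and to 25.38 and 22.71 CPM at P3. In E18.5 plate 1 Jag2 and Rasd2 made up most of this sum, with 3409 and 3853 counts against 295 of Otof. Most SGN-like cells of E18.5 held Jag2 and Rasd2, so the sum there mainly follows these genes. Atoh1, Gfi1 and Otof were at 0 in both plates of E14.5, and Atoh1, Pou4f3 and Gfi1 in both of P3. The part of hair cell RNA in these levels was not tested.

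Tmie and Pcdh15 fell. Tmie was at 28.2 and 13.1 CPM at E14.5, 5.36 and 1.94 at E15.5, 2.62 to 4.70 at E16.5, 1.08 at E17.5, 2.06 and 1.79 at E18.5 and 0.221 and 1.18 at P3. The fall to E18.5 was -3.43 on the log2 scale (SE 0.82, adjusted p = 0.0117, edgeR). Pcdh15 was at 14.1 and 15.6 CPM at E14.5, 4.11 and 5.20 at E15.5, 4.34, 2.53 and 10.6 at E16.5, 15.1 at E17.5 and 1.87 and 2.92 at E18.5. Its fall was -2.64 (SE 0.63, adjusted p = 0.0115, edgeR), and the plate of E17.5 stood as high as those of E14.5, so the levels did not descend stage by stage. Within E16.5, Pcdh15 was at 10.6 CPM in the plate of the E14.5 series and at 4.34 and 2.53 CPM in the others. Over that series alone, Tmie went from 28.2 and 13.1 CPM at E14.5 to 4.70 CPM at E16.5 and 1.08 CPM at E17.5, Lhfpl5 from 4.18 and 10.5 to 14.8 and 22.3 CPM, and Cib2 from 57.6 and 38.7 to 75.9 and 95.7 CPM.

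Between E14.5 and E18.5, 4 of the 10 genes were called higher and 2 lower, where 14.3% and 9.77% of all genes were. Of the 6, Cib2, Pcdh15, Tmie, Ush1g and Tmc2 each lost the call when single plates of E14.5 or E18.5 were left out. Myo7a was not called, at 21.6 and 16.6 CPM at E14.5 and 19.2 and 17.7 CPM at E18.5 (log2 fold change -0.06, SE 0.34, adjusted p = 0.922, edgeR). Its highest plates were one of E15.5 and one of E16.5, both at 39.3 CPM.

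From E18.5 to P3 Cdh23 alone of the 10 was called higher, where 12.7% of all genes were. It was at 0 and 0.515 CPM at E14.5, 0.573 and 1.02 at E15.5, 0.122 to 0.449 at E16.5, 0.886 at E17.5, 0.962 and 1.15 at E18.5, and 9.08 and 11.97 at P3. The P3 plates thus stood apart from all embryonic plates. The log2 fold change was 3.59 (SE 1.00, adjusted p = 0.0227, edgeR), and the call was lost without any 1 of the 4 plates. Pcdh15 was at 0.523 and 0.637 CPM at P3 (-1.77, SE 0.61, adjusted p = 0.0583, edgeR) and was not called lower, where 12.3% of genes were.

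Among late SGN-like subtypes, Pcdh15 and Cib2 differed. Type I neurons contact inner hair cells and were split into Ia-like and Ib/Ic-like cells, and type II neurons contact outer hair cells. Pcdh15 was at 0.204, 0.149, 0 and 0 CPM in Ia-like cells of E18.5 plates 1 and 2 and P3 plates 1 and 2, and at 4.05, 6.70, 0.842 and 0.810 CPM in Ib/Ic-like cells. Every Ib/Ic-like sum was above every Ia-like sum, with a log2 fold change of 5.67 (SE 0.99, adjusted p = 0.0348, edgeR), and Pcdh15 was the 1 gene of the 10 called (1.34% of all genes were called higher and 1.54% lower). The call was lost without E18.5 plate 1 or 2 or P3 plate 2. In the same order of plates the summed 8 hair cell markers were at 68.75, 70.6, 18.62 and 11.63 CPM in Ia-like and 96.04, 96.21, 29.59 and 25.18 CPM in Ib/Ic-like cells, with Jag2 and Rasd2 making up most of each sum, and their part in the level of Pcdh15 was not tested.

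Pcdh15 was also at 0 counts in all 3 II-like sums, against 768 counts in type I-like cells, at least 13.4-fold lower, though not called (adjusted p = 0.0519, edgeR). Cib2 was at 59.8, 57.9 and 44.3 CPM in II-like cells of E18.5 plates 1 and 2 and P3 plate 1, and at 52.2 to 135.2 CPM over the 8 type I-like sums. Within each plate II-like cells were lowest. The log2 fold change was -1.15 (SE 0.26, adjusted p = 0.0195, edgeR, where 8.92% of genes were called lower and 6.34% higher), and it was lost without E18.5 plate 1 or 2 or P3 plate 1 and at a Leiden resolution of 2. Cdh23 was higher at P3 than at E18.5 in both type I-like groups, with 4.91 and 7.97 CPM in Ia-like and 11.3 and 12.8 CPM in Ib/Ic-like cells, against 0.627 to 1.96 CPM in these subtypes at E18.5.

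Glia-like and OM-like cells were compared with SGN-like cells over the 6 plates of 1 plate series (both of E14.5, both of E15.5, E16.5 plate 3 and E17.5). E16.5 plates 1 and 2, of another series and with 15 glia-like cells between them, were left out. The clearest difference was in Lhfpl5, which glia-like cells had at 1 count in all, against 1325 in SGN-like cells, a ratio of 3250 with a counting interval of 582 to 128000 (adjusted p = 1.9e-05, edgeR). OM-like cells had 0 counts, at least 597-fold lower (adjusted p = 2.57e-05, edgeR). In E16.5 plates 1 and 2 themselves, 10 and 5 glia-like cells had 19.8 and 13.8 CPM of Lhfpl5 and 12 OM-like cells of plate 2 had 11.8 CPM. The summed hair cell markers were also higher in these cells, 52.7 and 32.7 CPM in glia-like cells against 0.9 to 10.5 CPM elsewhere, and 54.8 CPM in OM-like cells against at most 6.8 CPM. In glia-like cells of plate 1 Atoh1, Pou4f3, Gfi1, Lhx3, Otof and Barhl1 were at 0. The sum there came from Jag2 (71 counts) and Rasd2 (78 counts). In plate 2 only Gfi1, Otof and Jag2 had counts in glia-like cells, and only Otof, Jag2 and Rasd2 in OM-like cells. Jag2 and Rasd2 were also found in 79.3% and 58.2% of thinned SGN-like cells of E16.5. The part of hair cell or SGN RNA in the level of Lhfpl5 was not tested. In SGN-like cells of these plates Lhfpl5 was at 22.2 and 24.5 CPM. With both plates included, a setting chosen after the data had been seen, Lhfpl5 was still called lower in glia-like (adjusted p = 0.000207, edgeR) and OM-like cells (adjusted p = 0.000169).

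Cib2 ran from 3.52 to 10.84 CPM in glia-like and from 17.0 to 36.7 CPM in OM-like cells of the tested plates, and from 36.9 to 95.7 CPM in SGN-like cells. It was lower in glia-like cells (log2 fold change -2.78, SE 0.29, adjusted p = 4.15e-06, edgeR) and in OM-like cells (-1.15, SE 0.28, adjusted p = 0.0036). Lhfpl5 and Cib2 were called in both classes under every alternative tried. Tmie (-5.12, SE 1.72, adjusted p = 0.0216), Pcdh15 (-2.74, SE 0.99, adjusted p = 0.0306) and Myo7a (-0.94, SE 0.37, adjusted p = 0.044) were also called lower in glia-like cells in edgeR, and each lost the call under some alternatives.

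Of the 8 genes tested 5 were lower in glia-like and 2 in OM-like cells, where 25.9% and 26.9% of 14788 genes were. None was called higher, against 30.3% and 29.9% of all genes. Ush1g and Tmc2 were too low to be tested. The ranges of Myo7a overlapped between classes, at 6.36 to 24.5 CPM in glia-like, 7.78 to 27.8 CPM in OM-like and 16.6 to 39.3 CPM in SGN-like cells of these plates, though it was called lower in glia-like cells. Ush1g was at 0 in all OM-like sums and in 7 of 8 glia-like sums.

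Other hair bundle genes of fixed lists were counted in the same fits. In HC-like against SGN-like cells of E18.5, 7 of 19 stereocilia actin and motor genes, 3 of 11 other bundle and transduction partners and 2 of 13 paralogs of the 10 genes were called higher, and none lower (1.46% and 0.424% of all genes). The medians of these lists were 5.08, 6.54 and 1.70 on the log2 scale. The called gene with the largest change was Cib3, a paralog of Cib2, at 97.2 and 197.6 CPM in HC-like and 0.0105 and 0.0303 CPM in SGN-like cells (12.66, SE 0.77, adjusted p = 0.0413, edgeR). Loxhd1, a stereocilia membrane protein gene, had a change of 12.33 (SE 0.65, adjusted p = 0.033, edgeR). At E16.5 the counts were 8 of 19, 2 of 11 and 2 of 13 higher, where 1.77% of all genes were higher and 0.96% lower. The paralog Lhfpl4 was then the 1 gene lower in HC-like cells (-2.77, SE 0.29, adjusted p = 0.0416, edgeR), at 29.1 and 28.3 CPM against 178.8 and 160.7 CPM.

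Between hair cell types, Whrn, a scaffold gene of Usher type 2, was at 21.1 and 23.1 CPM in IHC-like and 114.5 and 132.6 CPM in OHC-like cells (log2 fold change 2.42, SE 0.33, adjusted p = 0.00072, edgeR), and the paralog Tmc4 rose by 4.07 (SE 0.56, adjusted p = 0.000718). Cib3 was nearly all vestibular, with 3370 counts against 1 in cochlear types, a ratio of 3890 with a counting interval of 697 to 154000. Pkhd1l1, a stereocilia coat gene, was nearly all cochlear, with 2137 counts against 2, a ratio of 927 with an interval of 256 to 7660. Cib3 and Cib2 thus lay on opposite sides of this comparison, as Cib2 was lower in vestibular cells.

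In SGN-like cells Espn, which bundles actin, rose with Lhfpl5 from E14.5 to E18.5, from 0 to 1058 counts (at least 51.1-fold, adjusted p = 0.000478, edgeR), and again to P3 (2.99, SE 0.61, adjusted p = 0.00543). Over E14.5 to E18.5, 5 of 19 stereocilia genes were called higher and 3 lower, and 5 of 14 paralogs higher, where 14.3% and 9.77% of all genes were called higher and lower. From E18.5 to P3 the paralog Lhfpl3 rose from 4.33 and 4.11 to 56.0 and 64.2 CPM (4.11, SE 0.67, adjusted p = 0.00125, edgeR), and Whrn fell by 2.14 on the log2 scale (SE 0.51, adjusted p = 0.011). In Ib/Ic-like against Ia-like cells 2 of 16 stereocilia genes, 3 of 8 bundle partners and 0 of 12 paralogs were called higher and none lower, among 439 genes called in all (1.34% of all genes higher and 1.54% lower). The 3 with the largest changes were Espn (6.25, SE 0.83, adjusted p = 0.00502), Ptprq (5.82, SE 1.20, adjusted p = 0.0406) and Grxcr1 (5.32, SE 0.65, adjusted p = 0.0034, edgeR).

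In glia-like cells the paralogs Tmc6 (log2 fold change 5.23, SE 0.73, adjusted p = 4.68e-05, edgeR) and Lhfp (3.12, SE 0.53, adjusted p = 0.000244) were higher than in SGN-like cells, and Lhfp was also higher in OM-like cells (4.82, SE 0.57, adjusted p = 1.07e-05). Clrn1, of Usher type 3, was lower in both (-8.88 and -9.16), with pooled levels of 173 CPM in SGN-like cells against 0.556 and 0.628 CPM. Of the 12 paralogs tested 5 were higher and 2 lower in glia-like cells, and 7 and 2 in OM-like cells, while 5 of 7 bundle partners were lower in each. Of all genes 30.3% were higher and 25.9% lower in glia-like cells, and 29.9% and 26.9% in OM-like cells. Lhfp was thus higher in both classes, while Lhfpl5 and Cib2 were lower.

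For each gene the 3 genes with the most similar pattern were taken by Pearson's r of log2(CPM + 1) over 17 class-by-stage points, as a description only, since points share plates and all genes high in HC-like cells correlate. Myo7a was most like Myo15, Ap1m2 and 4933413G19Rik (r = 0.98). Cib2 and Lhfpl5 were in each other's lists (r = 0.965), Cib2 with Ubash3b (0.968) and Map9 (0.962) and Lhfpl5 with 2310030G06Rik (0.976) and Rogdi (0.97). Tmc1 was most like Tmprss6 (0.983), Tmc2 most like Grxcr2 (0.986), Cdh23 most like Smpx, Chrna9 and Pgam2 (0.977), and Pcdh15 had Myo7a among its 3 (0.947). Ush1c was most like Tmprss6 (0.973), Ush1g most like Smim22 and Ccdc113 (0.98), and Tmie most like Fam183b (0.969).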

How the data were processed

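Per the labels each sample is 1 plate of tdTomato-sorted single cells. The authors mapped reads with STAR to mm10 plus 92 ERCC sequences, kept uniquely mapped reads, counted them with featureCounts and deposited raw read counts per gene and well, with no normalization. The annotation and strand setting are not given in the sources used here. A plate of 384 wells that belongs to no sample was not used.

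A well was kept if it had over 1000 genes and ERCC sequences took less than 5% of its counts. Counts were scaled to 1000 per cell and clustered by stage in scanpy 1.11.5 (2000 variable genes, 30 components, 30 neighbours, Leiden resolution 1; HC-like cells again with 15 components and 10 neighbours). The 10 genes and the hair bundle lists did not serve as features. Marker lists gave each cluster its name, by a rule that was changed once clusters had been looked at but ahead of all tests, so class sizes may differ from the study's. Single cells were gated in the sort and no doublet caller was run.

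Counts were summed per class and plate (at least 3 HC-like or 5 other cells) and put through the quasi-likelihood test of edgeR 4.0.16 in R 4.3.3 (filterByExpr, TMM, glmQLFit, glmQLFTest), with p-values adjusted by Benjamini-Hochberg across every gene of the fit. Called means an adjusted p under 0.05. Between classes the plate was a block, since classes of 1 plate came from the same sort. Deviations of classes from the same plate correlated by -0.032 to 0.049 (HC-like and SGN-like) and by 0.003 to 0.1 (SGN-like and glia-like). Nothing says that plates came from separate litters, so p-values measure spread over plates and not over litters. In fits with no block this is the spread of levels between plates. With the plate as a block it is the spread of class differences between plates. CPM are gene counts scaled to the total of the class in a plate. A floor is 3 counts. Intervals are 95% exact, and intervals and floors cover counting error only. Alternatives were DESeq2 1.42.0, a laxer filter, no block, each plate left out, the 5% highest-count cells left out and a Leiden resolution of 2, and, added once the data had been seen, E16.5 plates 1 and 2 in the glia-like and OM-like fit, marker-rich HC-like cells and vestibular HC-like cells alone. In simulated counts of HC-like against SGN-like cells at E18.5 (15107 genes) the fit found 42% of 16-fold and 26% of 8-fold changes. Named genes were all 10, the 3 hair bundle genes with the largest called change in each direction per comparison (some given as examples), and the 3 genes most like each of the 10; some of these are not reported here. The 10 genes and all lists were chosen with earlier results of these data known.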

Additional observations from a re-analysis of the deposited data

Results flagged for a closer look

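Cells of unnamed epithelial clusters at E14.5 and E15.5, which enter no comparison, stood out by Ush1c. Ush1c was at 311.0 CPM in 8 cells of E14.5 plate 2, at 696.4 CPM in 8 cells of E15.5 plate 1 and at 900.3 CPM in 5 cells of E15.5 plate 2. The other classes of the same plates were at 3.80, 2.34 and 3.20 CPM or less. These clusters led with epithelial genes such as Cldn6 and Krt18, and Ush1c was among the 10 leading genes of that of E15.5. The summed hair cell markers were 417.3, 1388 and 292.5 CPM and the summed supporting cell markers 23150, 887.8 and 2913 CPM, in the same order. In E14.5 plate 2 these cells also had Lhfpl5 at 146.5, Myo7a at 100.6 and Pcdh15 at 70.66 CPM. The highest other class of that plate was at 10.5, 20.53 and 15.59 CPM. Cib2 and Tmie were below the highest other class there, and Cdh23, Ush1g, Tmc1 and Tmc2 were at 0. In E15.5 plate 1 the cells had Myo7a at 167.9, Pcdh15 at 196.0, Lhfpl5 at 202.1, Cdh23 at 66.1, Tmie at 83.0 and Tmc1 at 22.04 CPM. In E15.5 plate 2 Lhfpl5 and Tmc1 were at 0 and Cdh23 at 0.838 CPM beside the highest Ush1c.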

How the results depend on the processing

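HC-like comparisons rest on 2 plates a stage and 2 residual degrees of freedom, E16.5 plate 3 holds 5 cells short of hair cell markers, and depth at E16.5 (3 counts are 1.68 and 1.60 CPM) hides low levels of Ush1g. Counts of called genes moved as follows. For HC-like against SGN-like cells at E18.5 (285) they were 3512 with DESeq2, 2167 with no replicate block, 2 without the highest-count cells, 605 at a Leiden resolution of 2, 0 with marker-rich HC-like cells and 0 to 8692 with 1 plate left out. At E16.5 (412) they were 5074, 3320, 6, 805, 0 and 152 to 9395 in the same order. With no block 9 of the 10 genes were called higher at each stage, as 8.35% and 8.72% of all genes, and without the highest-count cells 0. The interaction (0) gave 410 with DESeq2 and 0 to 7310 with 1 plate left out, and HC-like E18.5 against E16.5 (0) gave 62 and 0 to 8427. OHC-like against IHC-like (922) gave 1454 with the laxer filter and 0 at a Leiden resolution of 2, and vestibular against cochlear (1914) gave 745 there. With 1 plate left out the SGN-like stages gave 2273 to 5099 (4307) and 2176 to 5283 (4464), II-like against type I-like (2326) 976 to 2316, and 840 at a Leiden resolution of 2, and Ib/Ic-like against Ia-like (439) 115 to 467, and 1015 with DESeq2. Counts for glia-like and OM-like cells stayed within 1.5 times. The cause of these changes was not tested.

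Directions reversed for 4 values with a test, none of them called: Ush1g at E16.5 without 1 plate (from -6.06 without plate 1 to 5.246 without plate 3, the first from 0 HC-like counts with a floor above the SGN-like level, so no direction is read from it), and, at a Leiden resolution of 2, Cib2 in OHC-like against IHC-like cells (0.076) and Pcdh15 (-0.176) and Ush1g (-0.275) in vestibular against cochlear cells. Types of hair cell without 1 plate have no residual degrees of freedom and give values with no test. Without E18.5 plate 2, Myo7a (0.020) and Pcdh15 (-0.101) changed sign in vestibular against cochlear cells. The called genes ran over -3.76 to -2.98 for Tmc1, 1.38 to 1.94 for Pcdh15 and 0.80 to 0.95 for Cdh23 in OHC-like against IHC-like cells.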
